A study of Mus musculus with 4 samples.

Results

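Ephb2, Ephb3, Ephb4, Epha2, Efnb1, Efnb2 and Efna1 are 7 of the 32285 genes counted in single cells of the mouse distal small-intestinal epithelium. They were taken as a list of Eph receptors and ephrins that position cells along the crypt, by a rule that names the genes and uses no measured value, though earlier results of these data were known when the list was made. Ephb2, Ephb3 and Ephb4 are B-class receptors and Efnb1 and Efnb2 their ligands. Epha2 is an A-class receptor and Efna1 an A-class ligand. The 7 genes gave 9492 of the 41175644 unique molecular identifiers (UMIs, each standing for 1 captured RNA molecule) in the 1993 cells kept.

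The animals carried Lgr5-EGFP-IRES-CreERT2 and Rosa26-mTmG and all received 4-OH-tamoxifen, which switches the reporter from a red to a green membrane protein in cells with Cre activity and in their progeny. Cre and EGFP are both driven from the Lgr5 locus, which is active in crypt base stem cells. Tracing lasted 48 h in mice 1 to 4 and 72 h in mice 5 to 8. Villi were scraped away before dissociation, and every animal gave a GFP-high fraction, here called clones, and a GFP-negative fraction that had not recombined, here called control. The stem cells' own EGFP and the reporter's GFP are both green, so the GFP-high gate can hold Lgr5-positive cells that did not recombine. The GFP-negative gate can likewise leave out such cells. Hashtag antibodies told the animals apart. Clones and control of an animal went into different pools, with 4 mice of each gate in each pool. The labels give neither age nor sex. The mouse is the replicate throughout.

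Eph receptors are receptor tyrosine kinases that bind ephrins held on the surface of a neighbouring cell. Signals run into the receptor cell (forward) and into the ephrin cell (reverse), and they usually move cells apart. In the intestine EphB receptors are known from the crypt base and ephrin-B ligands from cells nearer the villus. EphB genes are textbook targets of Wnt signalling, and loss of Ephb2 and Ephb3 lets Paneth cells stray from the crypt base.

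Cells were unevenly spread over the groups. The 48 h clones had 4, 15, 83 and 8 cells in mice 1 to 4, with 77566 to 298850 UMIs per mouse, while the other groups had 40 to 326 cells and 813389 to 6370450 UMIs per mouse. Mouse 3's 83 clone cells stood apart. Their median depth was 1841 UMIs against 17157 to 23790 in the 72 h clones, and their median top hashtag held 48.6% of hashtag counts. The 48 h comparisons of gates below are therefore also given without mouse 3. Lgr5, the gene behind the sort, was higher in clones than in control in 7 of 8 mice, at 136, 201, 44.2 and 166 CPM (counts scaled to a common total) against 27.6, 53.6, 45.0 and 67.1 CPM in mice 1 to 4. In mice 5 to 8 it stood at 136, 76.7, 164 and 90.9 CPM against 51.3, 68.7, 47.9 and 30.2 CPM. The pair without a higher value in clones was mouse 3.

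Clustering, run with every Eph and ephrin gene left out of the genes that group the cells, gave 12 classes, of which 9 could be named from marker genes. They are stem-like (241 cells, led by Lgr5 among others), dividing-like (583), dividing secretory-like (48), secretory progenitor-like (200), goblet-like (260), Paneth-like (58), enteroendocrine-like (34), tuft-like (47) and enterocyte-like cells (170, led by the ileal bile acid genes Fabp6 and Slc10a2). Unnamed clusters were led by B4galnt4 (196 cells), Gsdmc3 (116) and Gm10800 (40, median depth 1606.5 UMIs). Class levels below are CPM of the summed counts of each mouse with at least 10 cells of the class, over both gates. They are a description with no test, because the classes come from the same cells. Orders and ranks of classes below cover the 8 classes in which at least 3 mice had 10 cells. Tuft-, Paneth- and enteroendocrine-like cells are given later as pooled counts, and they and the Gm10800-led cluster are outside the order. In the Gm10800-led cluster no gene of the 7 had more than 5 UMIs (Ephb2) of 82851. No class had 3 markers of immune, stromal, endothelial or red blood cells among its leading genes.

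Among the receptors, Ephb3 (chr16:21204755-21223305, plus strand, GRCm38) set the stem-like class apart from most of the 8 ordered classes. Ephb3 stood at 61.6 ± 14.8 CPM in stem-like cells (SD, n = 6 mice; lowest 48.4, median 59.2, highest 89.5). The next ordered class, led by B4galnt4, reached 36.0 ± 4.47 CPM (n = 6, lowest 28.8, median 37.2, highest 40.2), so those classes did not overlap. Enteroendocrine-like cells, given below as pooled counts, lay between these means, with an interval that held both means and the lowest stem-like mouse. Dividing-like cells had 27.2 ± 13.4 CPM (n = 8; lowest 12.2, median 21.8, highest 48.5), which reached the lowest stem-like mouse. Ephb3 was then low and overlapping in dividing secretory-like cells (14.8 ± 6.55 CPM, n = 3), secretory progenitor-like cells (13.8 ± 5.61, n = 8), the Gsdmc3-led cluster (5.91 ± 4.55, n = 5) and goblet-like cells (4.49 ± 1.91, n = 8). Enterocyte-like cells had the lowest mean, 2.98 ± 3.57 CPM (n = 6; lowest 0, median 1.47, highest 7.52). The log2 ratio of the stem-like to the enterocyte-like mean was 4.37 for Ephb3.

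Ephb2 (chr4:136647539-136835988, minus strand), the receptor used elsewhere to sort crypt base cells, was as high in dividing-like as in stem-like cells. It measured 71.8 ± 9.19 CPM in stem-like cells (n = 6; lowest 61.2, median 72.6, highest 84.8) and 71.2 ± 17.7 CPM in dividing-like cells (n = 8; lowest 43.6, median 70.0, highest 101). The dividing-like range enclosed the stem-like one. From there Ephb2 was lower in small, overlapping steps through dividing secretory-like (56.6 ± 13.2 CPM, n = 3), B4galnt4-led (55.5 ± 17.9, n = 6), secretory progenitor-like (47.2 ± 9.65, n = 8), goblet-like (38.8 ± 10.2, n = 8) and Gsdmc3-led cells (29.0 ± 8.88, n = 5). Enterocyte-like cells had 15.4 ± 12.2 CPM (n = 6; lowest 3.76, median 14.2, highest 37.1), below every stem-like mouse.

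Ephb4 (chr5:137350109-137378669, plus strand) is known in vessels as the receptor of ephrin-B2. Among the 8 ordered classes it was likewise highest in stem-like, B4galnt4-led and dividing-like cells. Its level was 44.7 ± 9.85 CPM in stem-like cells (n = 6; lowest 26.8, median 46.6, highest 54.5), 42.2 ± 10.9 in the B4galnt4-led cluster (n = 6) and 38.8 ± 8.07 in dividing-like cells (n = 8; lowest 29.2, median 36.8, highest 52.8). These 3 classes overlapped. Dividing secretory-like (35.0 ± 16.7 CPM, n = 3) and secretory progenitor-like cells (29.2 ± 5.95, n = 8) came next, and goblet-like (15.0 ± 7.10, n = 8), Gsdmc3-led (13.2 ± 6.36, n = 5) and enterocyte-like cells (7.75 ± 3.81, n = 6; highest 15.0) lay lowest. The log2 stem-like to enterocyte-like ratio was 2.22 for Ephb2 and 2.53 for Ephb4, and all 3 EphB receptors were higher in stem-like cells in 6 of 6 mice with both classes.

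Epha2 (chr4:141301240-141329384, plus strand), an A-class receptor of many epithelia, did not share this order. It gave 272 UMIs in all. Its means were 12.3 ± 5.08 CPM in enterocyte-like cells (n = 6; lowest 3.76, median 12.3, highest 18.5), 10.4 ± 3.96 in stem-like cells (n = 6; lowest 4.46, median 10.9, highest 15.6) and 10.4 ± 7.74 in the Gsdmc3-led cluster (n = 5), and these overlapped widely. Dividing-like cells had 6.79 ± 1.81 CPM (n = 8), goblet-like 5.91 ± 3.46 (n = 8), dividing secretory-like 4.10 ± 4.85 (n = 3) and secretory progenitor-like cells 3.54 ± 3.06 (n = 8). In the B4galnt4-led cluster, where the EphB receptors were high, Epha2 had a mean of 1.04 ± 2.00 CPM (n = 6; lowest 0, median 0, highest 5.01). Stem-like cells exceeded enterocyte-like cells in 2 of 6 mice, with a log2 ratio of −0.24.

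Of the ligands, Efnb2 (chr8:8617434-8661242, minus strand), the transmembrane ligand also known as an arterial marker, ran opposite to Ephb3. Enterocyte-like cells had 84.0 ± 11.2 CPM (n = 6, lowest 67.7, median 82.4, highest 99.6). All their values lay above every mouse of the next ordered class, the Gsdmc3-led cluster at 50.1 ± 7.79 CPM (n = 5, lowest 39.7, median 52.9, highest 59.7). Goblet-like cells followed with 40.8 ± 11.8 CPM (n = 8; lowest 25.4, median 39.0, highest 64.2) and secretory progenitor-like cells with 28.8 ± 14.6 (n = 8), each overlapping its neighbour. Efnb2 was low in dividing secretory-like (17.3 ± 5.31 CPM, n = 3), stem-like (16.2 ± 3.96, n = 6; lowest 11.7, median 16.5, highest 21.8), dividing-like (15.8 ± 7.48, n = 8) and B4galnt4-led cells (8.57 ± 5.45, n = 6). Its log2 stem-like to enterocyte-like ratio was −2.38, with stem-like cells higher in 0 of 6 mice.

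Efnb1 (chrX:99136130-99148991, plus strand), the other ephrin-B ligand, did not separate the ends of this order. It stood at 93.9 ± 17.1 CPM in enterocyte-like cells (n = 6; lowest 78.8, median 89.2, highest 124) and at 93.3 ± 23.5 CPM in stem-like cells (n = 6; lowest 66.9, median 96.1, highest 121), a log2 ratio of −0.01. The Gsdmc3-led cluster had 84.2 ± 27.6 CPM (n = 5). Goblet-like (56.2 ± 12.6, n = 8), dividing-like (55.6 ± 11.3, n = 8), dividing secretory-like (52.2 ± 12.5, n = 3), secretory progenitor-like (47.6 ± 10.7, n = 8) and B4galnt4-led cells (41.0 ± 7.13, n = 6) lay lower and overlapped one another.

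Efna1 (chr3:89271733-89281142, minus strand), a ligand tethered to the membrane by a lipid anchor and a main partner of Epha2, was also high at both ends. Enterocyte-like cells had 57.2 ± 29.9 CPM (n = 6; lowest 29.3, median 48.7, highest 116) and stem-like cells 55.6 ± 9.80 CPM (n = 6; lowest 44.6, median 56.0, highest 72.0), with a log2 ratio of −0.04. The B4galnt4-led cluster (38.6 ± 10.7 CPM, n = 6), the Gsdmc3-led cluster (31.4 ± 13.0, n = 5) and dividing-like cells (28.6 ± 7.45, n = 8) were intermediate. Goblet-like (15.9 ± 9.61, n = 8), dividing secretory-like (10.7 ± 9.47, n = 3) and secretory progenitor-like cells (10.5 ± 5.43, n = 8) were lowest. Efna1 was thus low in goblet-like and secretory progenitor-like cells, where Efnb2 was intermediate. The plots of class levels show these orders gene by gene.

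**Figure D1:**
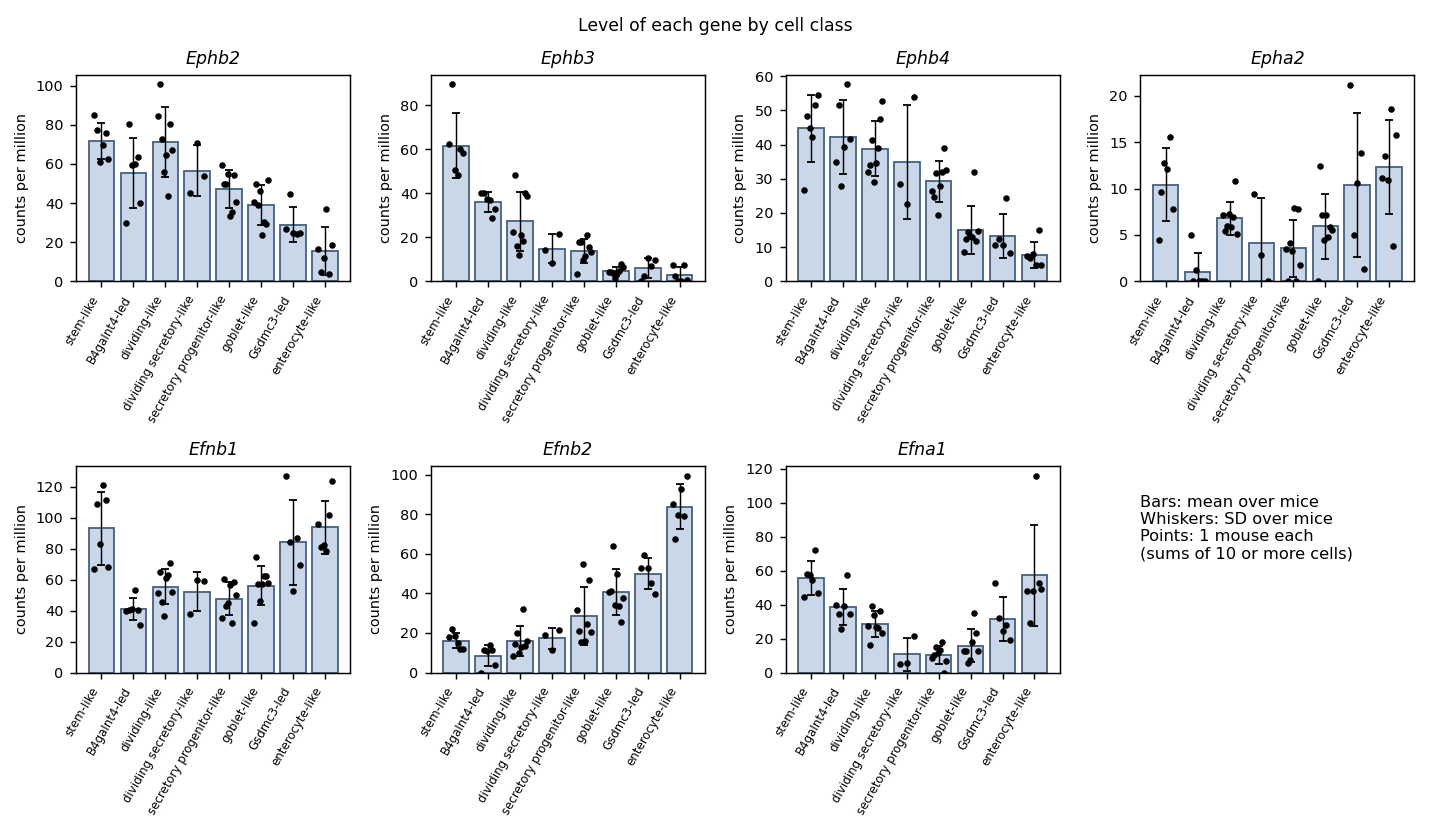
Level of each gene (CPM) in each cell class; each point is 1 mouse with at least 10 cells of the class, bars are means and whiskers SDs over mice. Among the 8 classes shown, Ephb3 is highest in stem-like cells (61.6 ± 14.8 CPM) and Efnb2 in enterocyte-like cells (84.0 ± 11.2 CPM). Efnb1 and Efna1 have similar means in both.

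**Figure D2:**
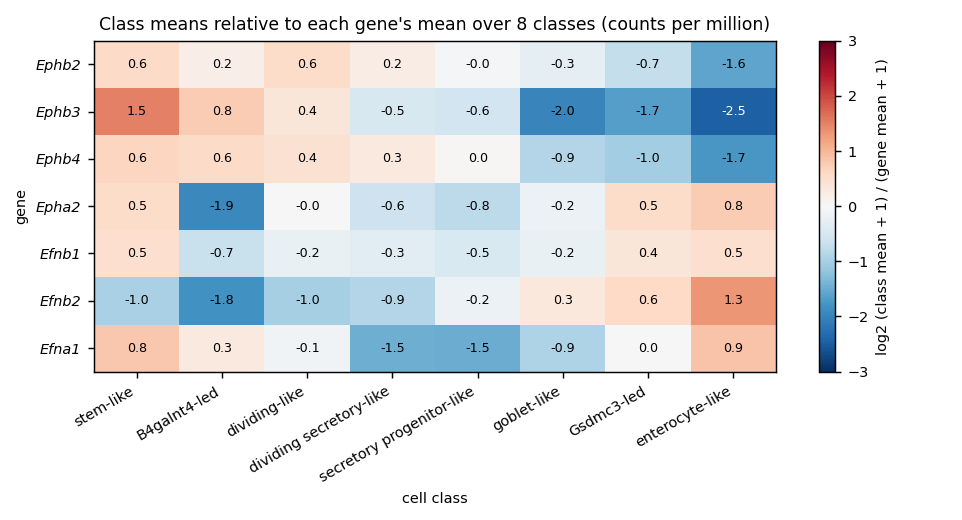
Mean CPM over mice of each gene in each class, as the log2 of (class mean + 1) over (the gene's mean of 8 classes + 1), so levels of different genes are not compared. Red marks classes above and blue classes below that mean: the 3 EphB receptors are above it at the stem-like end and Efnb2 at the enterocyte-like end.

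The letters upstream of Ephb3, Efnb2 and Epha2 are shown as examples. Among the ordered classes, Ephb3 was highest in stem-like cells and Efnb2 in enterocyte-like cells. Epha2 is a receptor that did not share the order of the EphB genes. Each stretch runs 5′ to 3′ on the gene's strand from 250 to 51 bases before the start annotated in RefSeq (GRCm38.p6). Capitals mark a match to the Wnt-effector motif of the TCF/LEF factors, searched on both strands. The forms searched were CTTTGAA, the form CTTTGAT, the form CTTTGTA and the form CTTTGTT. No match overlapped another in the windows of the 7 genes.
Ephb3 (chr16:21204545-21204744, plus strand): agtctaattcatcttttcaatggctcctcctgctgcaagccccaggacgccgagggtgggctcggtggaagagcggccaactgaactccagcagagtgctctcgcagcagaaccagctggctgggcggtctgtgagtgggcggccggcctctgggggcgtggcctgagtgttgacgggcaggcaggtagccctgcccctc
Efnb2 (chr8:8661293-8661492, minus strand): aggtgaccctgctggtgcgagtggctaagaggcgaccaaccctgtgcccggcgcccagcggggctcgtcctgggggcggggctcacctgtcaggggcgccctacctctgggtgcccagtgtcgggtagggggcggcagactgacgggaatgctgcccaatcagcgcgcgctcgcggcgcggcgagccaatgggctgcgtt
Epha2 (chr4:141300971-141301170, plus strand): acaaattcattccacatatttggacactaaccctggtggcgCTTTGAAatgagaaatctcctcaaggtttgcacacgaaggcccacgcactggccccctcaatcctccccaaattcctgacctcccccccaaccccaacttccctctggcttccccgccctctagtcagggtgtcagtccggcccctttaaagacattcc
All 7 genes were found in the RefSeq promoter set. In windows of 300 bases (250 before to 50 after the start) only Epha2 of the 7 held a match, CTTTGAA, which begins 209 bases before the start, and 16.9% of 32851 promoters of the same length held at least 1. The Ephb3 and Efnb2 stretches had no match in this window and were richer in G and C (65.0% and 72.0%) than that of Epha2 (54.5%).

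The rarer classes had too few cells per mouse for a spread, so their pooled counts are given with exact 95% Poisson intervals, which like all intervals here cover counting error only. Tuft-like cells combined a B-class receptor with its ligand: Ephb2 stood at 115 CPM (interval 90.3 to 143, 76 UMIs from 7 mice) and Efnb2 at 110 CPM (86.3 to 138, 73 UMIs from 7 mice). Their pooled Efnb2 level lay above the enterocyte-like mean over mice (84.0 CPM). Ephb4 in tuft-like cells was at 48.2 CPM (33.0 to 68.1), an interval that held the stem-like mean (44.7). Ephb3 in tuft-like cells was at 13.6 (6.20 to 25.8) and Efna1 at 4.52 (0.933 to 13.2, from 3 UMIs). Tuft cells are chemosensory cells of the epithelium.

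Enteroendocrine-like cells, which make hormones, had 72.3 CPM of Ephb2 (52.3 to 97.4), 47.1 of Ephb3 (31.3 to 68.0) and 25.2 of Ephb4 (14.1 to 41.6). Of the ligands they had 42.0 CPM of Efnb1 (27.2 to 62.0), 28.6 of Efna1 (16.7 to 45.8) and 13.5 of Efnb2 (5.81 to 26.5). Epha2 gave 0 UMIs of 594770, which allows up to 5.04 CPM. Paneth-like cells, the defensin-secreting cells of the crypt base, carried Ephb3 at 26.2 CPM (19.2 to 34.8, 47 UMIs from 7 mice), Ephb2 at 34.5 (26.5 to 44.2) and Ephb4 at 13.4 (8.56 to 19.9). Their Ephb3 level lay above the goblet-like range of single mice (highest 7.83 CPM). Efnb2 was at 24.5 CPM (17.8 to 32.9) and Efnb1 at 22.8 (16.4 to 31.0) in Paneth-like cells.

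Shares of cells with at least 1 UMI were read after thinning each cell to 3000 UMIs, because depth differed between classes. Ephb3 was detected in 17.1% of stem-like cells (Wilson 95% interval 12.8 to 22.4%, 234 cells) and in 8.42% of dividing-like cells (6.38 to 11.1%, 546 cells), against 0.610% of enterocyte-like cells (0.108 to 3.37%, 164 cells), the class with the lowest level of it. Unthinned, Ephb3 was detected in 56.4% of stem-like and 4.71% of enterocyte-like cells, at median depths of 17005 and 28009 UMIs. Efnb2 reached 25.0% in enterocyte-like cells (19.0 to 32.1%) and 34.0% in tuft-like cells (22.2 to 48.3%, 47 cells), against 5.13% in stem-like and 2.93% in dividing-like cells. Without thinning these shares were 77.1%, 70.2%, 17.0% and 23.0%, with median depths of 28009, 10264, 17005 and 16628 UMIs. Thinned to 1500 UMIs, Ephb3 was detected in 8.37% of stem-like and 0% of enterocyte-like cells (0 of 165, Wilson 95% interval to 2.28%), and Efnb2 in 11.5% of enterocyte-like, 19.1% of tuft-like and 2.51% of stem-like cells, so the shares depend on the depth chosen.

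Receptor and ligand were also counted within single thinned cells. An EphB receptor UMI was found in 46.2% of stem-like cells (39.9 to 52.6%), 44.1% of enteroendocrine-like cells (28.9 to 60.5%), 42.6% of tuft-like cells (29.5 to 56.7%) and 7.93% of enterocyte-like cells (4.69 to 13.1%). Ephrin-B UMIs were found in 26.5%, 11.8%, 42.6% and 46.3% of the same classes. Both together were seen in 12.4% of stem-like cells (8.77 to 17.2%), 10.6% of tuft-like cells (4.63 to 22.6%), 5.88% of enteroendocrine-like cells (1.63 to 19.1%) and 3.66% of enterocyte-like cells (1.69 to 7.75%). Unthinned, 67.2% of stem-like, 70.2% of tuft-like, 44.1% of enteroendocrine-like and 38.2% of enterocyte-like cells had both. The highest unthinned share was 75.0%, in dividing secretory-like cells. At 1500 UMIs ephrin-B UMIs were found in 13.8% of stem-like, 5.88% of enteroendocrine-like, 19.1% of tuft-like and 19.4% of enterocyte-like cells, and both together in 4.18%, 0% (0 of 34, interval to 10.2%), 8.51% and 3.03%.

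Across the 12 class means, the genes most like each member are given as a description with no p, since the points share libraries and cells. For these lists and for the pairs of members, the 12 points include tuft-, Paneth- and enteroendocrine-like cells and the Gm10800-led cluster. Those classes are outside the order above because too few mice had enough of their cells. The Gm10800-led cluster also had few UMIs of any of the 7 genes. How the correlations change without these classes was not tested. Ephb3 correlated best with Bex1 (r = 0.95, n = 12 classes, log2 CPM), Sorbs2 (0.94), Zfp386 (0.92), Ifitm3 (0.91) and Miga1 (0.90), and Ephb2 with Mga (0.95), Zfp644 (0.95), Slk (0.94), Utrn (0.93) and Mcc (0.93). For Ephb4 these were Pms1 (0.95), Ivd (0.93), Arid1a (0.92), Mga (0.91) and Bod1l (0.91), so Mga was among the nearest for both. Efnb2 was closest to F11r (0.95), Mvp (0.93), Myo15b (0.91), Stx8 (0.91) and Cdipt (0.91), and Efna1 to Sod1 (0.93), Slc5a1 (0.92), Ms4a10 (0.92), Rnf13 (0.92) and the apolipoprotein gene Apob (0.91). Epha2 was nearest to Trim16 (0.92), Ppcs (0.90), Mfsd4a (0.87), Tep1 (0.86) and Rps6ka1 (0.85), and Efnb1 to Nfe2l2 (0.86), Tnfaip1 (0.86), Stk25 (0.86), Cux1 (0.86) and Arhgap32 (0.85). Among the 7 genes the closest pair was Ephb2 and Ephb4 (r = 0.89) and the most opposed pair Ephb3 and Efnb2 (r = −0.73), with Efnb1 and Efna1 at 0.79.

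Other genes of the family were mostly sparse. Of 10 further Eph receptors and 5 further ephrins, Epha4, Epha1, Epha7, Efna4 and Efna3 had a UMI in at least 5% of the cells of a class. Efna4 was at 62.3 ± 7.92 CPM in stem-like cells against 6.47 ± 2.26 in enterocyte-like cells (n = 6 mice each). This A-class ligand was thus low in enterocyte-like cells, where Efna1 was high, while both were high in stem-like cells. Epha4 was at 42.5 ± 14.0 and 5.56 ± 5.17 CPM in the same classes and Epha1 at 6.41 ± 3.76 and 18.1 ± 8.51. Epha7 was found in 21.3% of tuft-like cells (12.0 to 34.9%) and 7.88% of stem-like cells (5.11 to 12.0%), unthinned. Efna3 was highest in dividing-like cells, where 7.72% had a UMI.

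The comparison of gates asks whether GFP-high cells differed in these genes from GFP-negative cells of the same animals. After 72 h, sums over all cells had more Ephb3 in clones than in control in each mouse, at 27.7, 39.0, 47.5 and 27.3 CPM against 17.4, 20.8, 22.6 and 14.0 CPM in mice 5 to 8 (TMM-scaled library sizes). The groups did not overlap, which held for 2.57% of 10606 genes in this direction and 2.25% in the other. The log2 fold change was 0.90 (SE 0.22) and did not pass edgeR's quasi-likelihood test with Benjamini-Hochberg adjustment (adjusted p = 0.313). Here that fit called 0% of 10606 genes, with 842 at an unadjusted p under 0.05, and DESeq2 called 8 genes, none of them among the 7, with Ephb3 at an adjusted p of 0.115. Without the low-count filter the same edgeR fit called Ephb3 (adjusted p = 0.00338), and the share of all genes called there is not given here. With the mouse as a block, which pairs clones and control of the same animal, Ephb3 rose by 0.89 (SE 0.16, adjusted p = 0.00634, edgeR) and was the one gene of the 7 called, beside a background of 1.87% of genes. That call was kept without mouse 6 and without any of the 48 h mice, and was lost without mouse 5 (adjusted p = 0.0801), mouse 7 (0.0898) or mouse 8 (0.133).

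**Figure D3:**
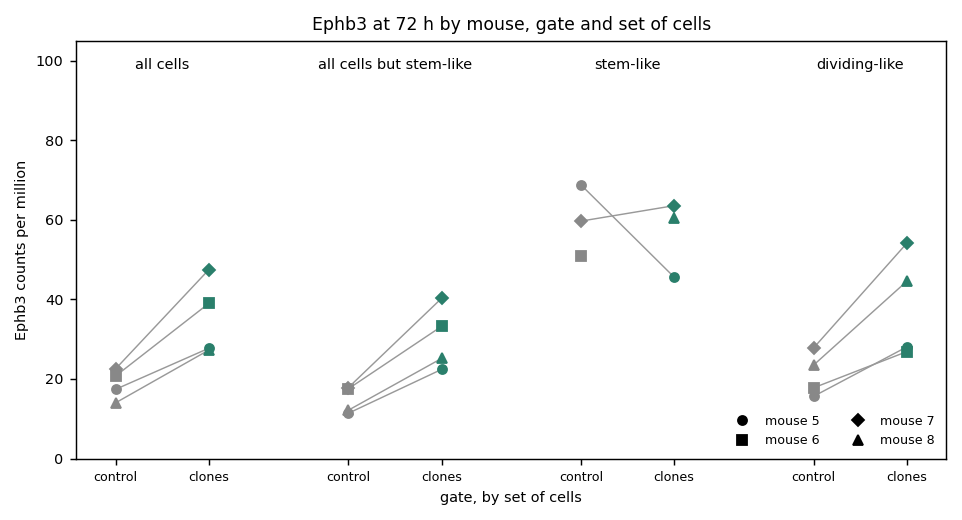
Ephb3 (CPM) in clones and control of the 4 mice traced 72 h; each symbol is a mouse and lines join its gates. From left to right the sets are all cells, all cells but stem-like, stem-like and dividing-like cells. The set without stem-like cells is scaled to plain totals and the other sets are TMM-scaled. Over all cells clones lie above control in each mouse, at 27.3 to 47.5 against 14.0 to 22.6 CPM, and in stem-like cells the values interleave.

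The mix of classes differed between the same samples. Stem-like cells, the class highest in Ephb3, made up 29.2, 15.0, 37.8 and 9.82% of clone cells against 11.9, 10.4, 14.3 and 2.17% of control cells in mice 5 to 8, and Lgr5 was at a log2 fold change of 1.26 (1.29 with the block, adjusted p = 0.0046). With the stem-like cells left out, an alternative added after seeing the data, Ephb3 stood at 22.4, 33.2, 40.3 and 25.2 CPM in clones against 11.4, 17.5, 17.9 and 12.2 CPM in control, without overlap. Its fitted log2 fold change was then 0.97 (adjusted p = 0.467, edgeR), and 0.99 with the block (adjusted p = 0.00208). The share of all genes called in that block fit is not given here. The cells left also differed in mix. Dividing-like cells were 29.2, 25.0, 38.7 and 36.8% of all clone cells against 28.4, 20.1, 31.2 and 18.5% of all control cells in mice 5 to 8. Enterocyte-like cells, lowest in Ephb3, were rarer in clones in each mouse (shares below). The part of this mix in the difference was not tested.

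Ephb4 and Efnb2 had differences at 72 h that reached an unadjusted p under 0.05 and no adjusted call. Ephb4 was at 34.5, 40.3, 43.8 and 35.1 CPM in clones and at 25.4, 32.0, 37.5 and 25.0 CPM in control. It was higher in clones in 4 of 4 mice, though the groups overlapped, with a log2 fold change of 0.36 (SE 0.17, adjusted p = 0.626, edgeR; 0.206 with the block). Efnb2 pointed the other way, at 22.1, 29.6, 16.7 and 30.9 CPM in clones against 36.0, 36.4, 29.8 and 42.7 CPM in control. Clones were higher in 0 of 4 mice and the groups overlapped slightly, with a log2 fold change of −0.56 (SE 0.22, adjusted p = 0.587, edgeR; 0.107 with the block).

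Enterocyte-like cells had the highest Efnb2 of the 8 ordered classes. They were 3.90, 2.50, 2.70 and 7.06% of clone cells and 14.2, 6.94, 10.4 and 14.7% of control cells at 72 h. Without them Efnb2 was at 18.0, 25.5, 12.9 and 21.4 CPM in clones against 23.1, 30.2, 23.5 and 30.6 CPM in control, again with clones lower in each mouse.

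The remaining 4 genes differed little at 72 h. Ephb2 was at 55.5, 37.7, 67.3 and 53.4 CPM in clones and 43.5, 50.0, 58.4 and 50.9 CPM in control (log2 fold change 0.11, SE 0.17). Efnb1 was at 64.9, 82.0, 77.7 and 60.2 CPM against 66.1, 64.3, 79.9 and 64.8 CPM (0.03, SE 0.14). The values of both overlapped throughout. Epha2 stood at 10.2, 5.38, 9.91 and 4.55 CPM against 6.41, 7.19, 8.82 and 7.34 CPM (0.05, SE 0.28), and Efna1 at 35.8, 29.6, 45.4 and 24.4 CPM against 28.8, 40.0, 35.3 and 21.4 CPM (0.12, SE 0.23). Their adjusted p-values were 0.881 or above in edgeR.

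**Figure D4:**
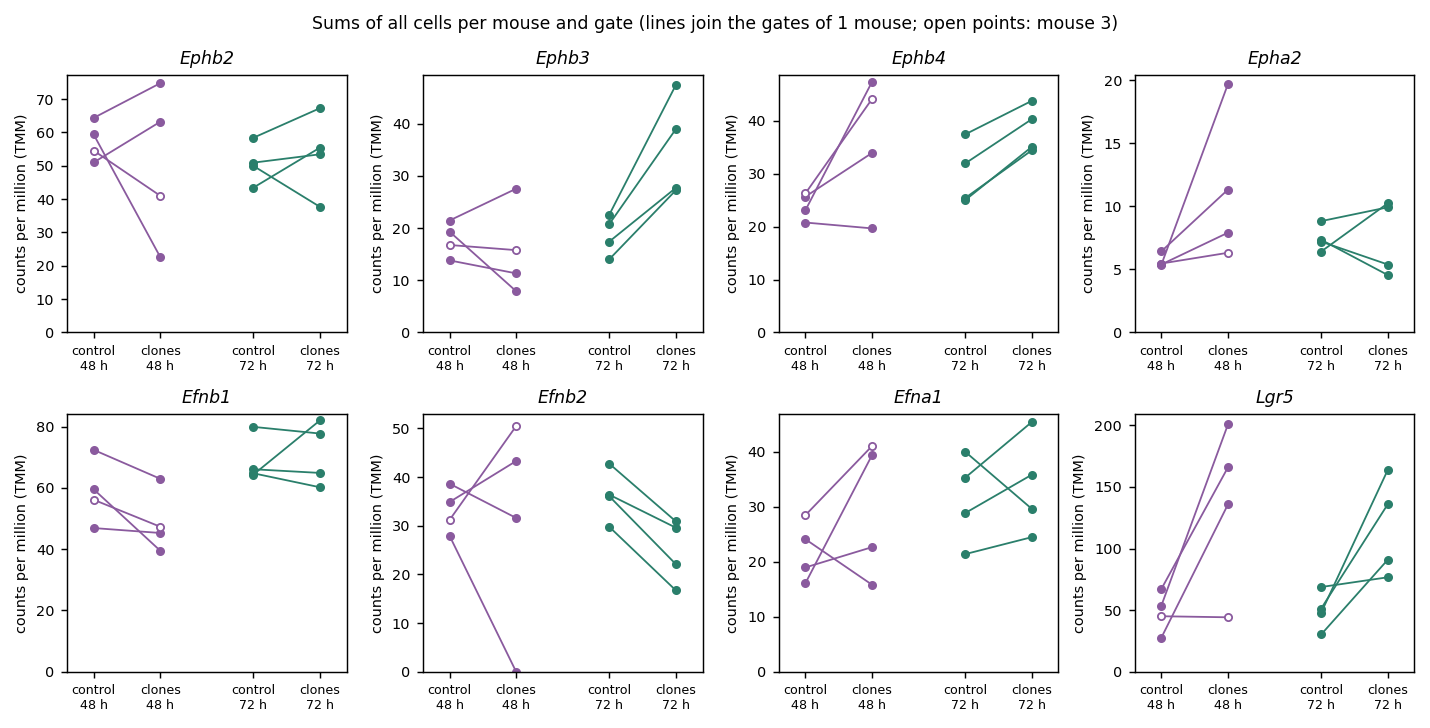
CPM of each gene in the sums of clone and control cells of each mouse at 48 h and 72 h; points are mice, lines join the gates of a mouse, open points are mouse 3, and Lgr5 is shown as the check of the sort. At 72 h the Ephb3 values of clones (27.3 to 47.5 CPM) lie above those of control (14.0 to 22.6 CPM), and at 48 h the values overlap.

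After 48 h the clones were thin, and no gene of the 7 was called. Ephb3 was at 11.3, 27.5, 15.8 and 7.90 CPM in clones and 13.8, 21.5, 16.8 and 19.3 CPM in control, with clones higher in 1 of 4 mice and a log2 fold change of 0.01 (SE 0.42; 0.09 without mouse 3). With stem-like cells left out, Ephb3 was at 40.6, 41.2, 17.1 and 9.58 CPM in the 1, 11, 80 and 6 clone cells that remained in mice 1 to 4, against 12.3, 22.1, 14.9 and 8.37 CPM in control. Clones were then higher in 4 of 4 mice with overlapping groups, and the fitted log2 fold change of 0.63 (SE 0.53, adjusted p = 0.763, edgeR; 0.49 with the block) was not called. Ephb2 was at 22.6, 74.8, 41.0 and 63.2 CPM against 59.4, 64.4, 54.6 and 51.0 CPM (−0.10, SE 0.26; 0.09 without mouse 3). Over all cells the clone values of both receptors spanned the control values. Ephb4 was at 34.0, 19.7, 44.2 and 47.4 CPM against 25.7, 20.8, 26.3 and 23.1 CPM (0.55, SE 0.29, adjusted p = 0.479, edgeR; 0.39 without mouse 3), with clones higher in 3 of 4 mice.

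Epha2 had the largest fold change of the 7 at 48 h, at 11.3, 19.7, 6.31 and 7.90 CPM in clones against 6.42, 5.36, 5.46 and 5.38 CPM in control. Clones were higher in 4 of 4 mice, though the clone value of mouse 3 lay below the control value of mouse 1, and the log2 fold change of 1.03 (SE 0.50, adjusted p = 0.43, edgeR; 1.24 without mouse 3) was not called. It rests on few molecules, since a level of 11.3 CPM in mouse 1 is 1 UMI. Over the alternatives the value ran from 0.24, with stem-like cells left out, to 1.43, at a 10% mitochondrial limit.

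Of the ligands at 48 h, Efnb2 was at 0 (of 77566 UMIs), 43.3, 50.5 and 31.6 CPM in clones against 27.9, 34.9, 31.2 and 38.6 CPM in control (0.22, SE 0.35), and it turned to −0.14 without mouse 3. Efnb1 was at 45.3, 63.0, 47.3 and 39.5 CPM against 46.9, 72.4, 56.1 and 59.6 CPM (−0.20, SE 0.22; −0.21 without mouse 3), lower in clones in each mouse but overlapping. Efna1 was at 22.6, 39.4, 41.0 and 15.8 CPM against 19.0, 16.1, 28.4 and 24.1 CPM (0.59, SE 0.39; 0.54 without mouse 3).

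Genes with all clone sums above control made up 1.9% of 10606 genes at 48 h and those with all below 7.16%, and none of the 7 was among them. Without mouse 3 these shares were 6.29% and 17.9%, and Epha2 was among the first. The edgeR fit called 0% of genes at 48 h, with 1271 at an unadjusted p under 0.05 (none of the 7), and DESeq2 called 63. With the block 0.896% of genes were called, again none of the 7. Without mouse 3 edgeR called 0 of 10742 genes (1491 at an unadjusted p under 0.05) and 222 with the block, none of them among the 7. Over both times together the fit called 0.00943% of genes (4.5% with the block) and none of the 7. Ephb4 was nearest there, with a log2 fold change of 0.46 (SE 0.17, adjusted p = 0.188, edgeR; 0.122 with the block).

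**Figure D5:**
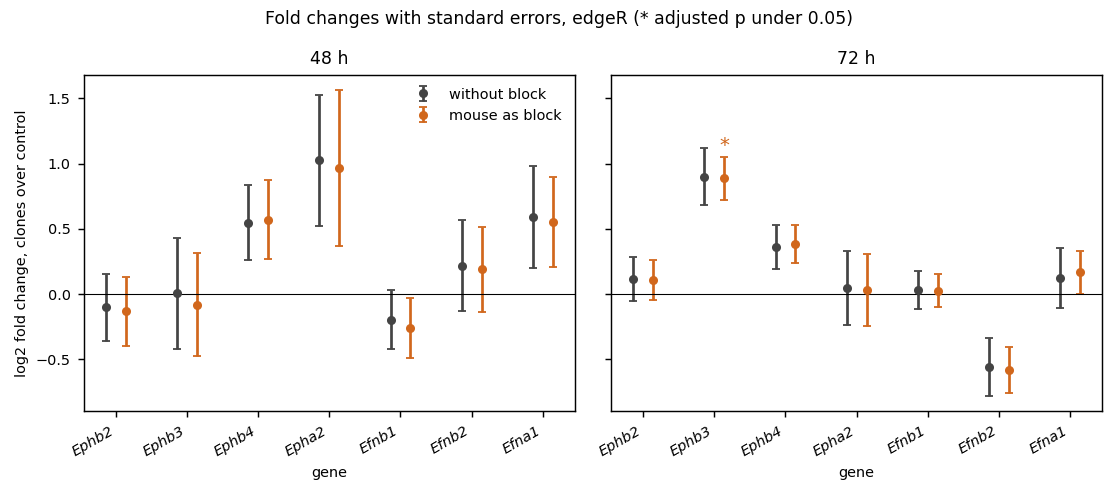
Log2 fold change of clones over control for each gene at 48 h and 72 h, for the fit without and with the mouse as a block. Bars are 1 standard error, worked back from the F of the test, and an asterisk marks an adjusted p under 0.05. The Ephb3 value at 72 h is 0.90 without and 0.89 with the block, and the 48 h bars are wider.

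Between tracing times no gene of the 7 was called. In control, 72 h against 48 h, the log2 differences ran from −0.18 (SE 0.17) for Ephb2 to 0.46 (SE 0.23, adjusted p = 0.877, edgeR) for Efna1, and 0.0849% of genes were called. In clones Ephb3 was higher at 72 h by 0.95 (SE 0.40, adjusted p = 0.781, edgeR), with the 48 h values of 7.90 to 27.5 CPM overlapping the 72 h values of 27.3 to 47.5 CPM at their edge. The fit called 0% of genes there (664 at an unadjusted p under 0.05; DESeq2 called 1). For Ephb3 the change of the clone-control difference from 48 h to 72 h was 0.89 (SE 0.47, adjusted p = 0.956, edgeR) and 0.97 (SE 0.41, adjusted p = 0.763) with the block, so the difference at 72 h was not shown to differ from that at 48 h. No gene was called in that test (0%, 554 at an unadjusted p under 0.05, 2 by DESeq2), and 0.0943% were called with the block.

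Within classes, gates could be compared at 72 h in dividing-like, stem-like and goblet-like cells. In dividing-like cells, named from cell-cycle genes, Ephb3 was at 28.1, 26.9, 54.1 and 44.6 CPM in clones and 15.7, 17.8, 27.8 and 23.5 CPM in control. Clones were higher in 4 of 4 mice and overlapped control slightly. The log2 fold change was 0.91 (SE 0.28, adjusted p = 0.744 over 8008 genes, edgeR) and 0.86 with the block (adjusted p = 0.107), close in size to that over all cells. Of the other 5 members tested there Efnb2 had the largest difference, −0.37 (SE 0.35).

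In stem-like cells Ephb3 was at 45.6, 63.6 and 60.3 CPM in the clones of mice 5, 7 and 8 and at 68.7, 51.0 and 59.7 CPM in the control of mice 5, 6 and 7, with a log2 difference of −0.10 (SE 0.27, adjusted p = 0.997). The values interleaved, and the sign turned without mouse 5 (0.29). Efnb1 had the largest difference there, −0.51 (SE 0.22, adjusted p = 0.997 over 5802 genes, edgeR). Stem-like Efnb1 was at 72.7, 113 and 80.4 CPM in the same clones and at 117, 148 and 133 CPM in the same control. These values did not overlap, and the share of all genes without overlap there was not counted. Efnb1 was the 1 member there at an unadjusted p under 0.05 in edgeR, and DESeq2 had 0. In goblet-like cells 4 members could be tested, with log2 differences from −0.51 (SE 0.47) for Efna1 to 0.40 (SE 0.31) for Ephb2. Goblet-like Ephb2 was at 23.8, 42.6 and 62.3 CPM in the clones of mice 5, 6 and 8 and at 26.8, 27.3, 31.8 and 47.4 CPM in the control of mice 5 to 8, so the gates overlapped. Goblet-like Efna1 was at 13.6, 26.6 and 15.3 CPM in the same clones and at 22.7, 42.2, 28.9 and 11.5 CPM in the same control, again with overlap. In each of these classes edgeR called 0% of genes, with 385 at an unadjusted p under 0.05 in dividing-like, 133 in goblet-like and 248 in stem-like cells, and DESeq2 called 0. Epha2 could not be tested in any of the classes, nor Efnb2 in stem-like cells.

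The partners of the family were followed as lists of known pathway genes. In forward signalling, from kinases and adaptors to small GTPases, 34 of 36 genes were tested at 72 h and 0 were called. Their median log2 fold change was 0.01, as was that of all genes. Among its most abundant genes were the GTPase Cdc42 (−0.32, SE 0.19) and the kinase Pak2 (0.01, SE 0.12). With the block, Fyn, a Src-family kinase (1.33, SE 0.30, adjusted p = 0.0226), and Arhgef26, an exchange factor (0.55, SE 0.13, adjusted p = 0.0323), rose in clones, and 0 genes fell. That is 2 of 34 beside 1.87% of all genes in this fit. Reverse signalling, by which the ephrin cell responds, had 7 of 9 genes tested, a median of −0.06 and 0 called with or without the block (Afdn 0.00, SE 0.12; Sdcbp −0.06, SE 0.13; Stat3 −0.07, SE 0.26). Cleavage enzymes and cadherin adhesion had 8 of 8 tested, a median of −0.03 and 0 called (Cdh1, the epithelial cadherin, 0.01, SE 0.13; Ctnnb1 0.11, SE 0.15; Ctnna1 0.03, SE 0.15).

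Wnt targets, the set of which EphB genes are textbook members, differed in 1 direction. At 72 h 11 of 13 genes were tested, 11 had positive fold changes with a median of 0.85 beside 0.01 over all genes, and 0 were called. With the block 7 rose in clones, namely Sp5 (1.37), Lgr5 (1.29), Cd44 (0.92), Rnf43 (0.87), Axin2 (0.83), Ascl2 (0.79) and Sox9 (0.76), with adjusted p-values of 0.0033 to 0.0265, and 0 fell, beside 1.87% of all genes called in this fit. Lgr5 drives the EGFP that the gate can sort on, and several of these are stem cell markers, and the share of stem-like cells moved with them; its part in the result was not tested. At 48 h the 11 genes also had a median of 0.71 beside −0.07 over all genes, 0 called, and Axin2 rose with the block (1.02, SE 0.19, adjusted p = 0.0152), beside 0.896% of all genes. Without mouse 3, 12 of the genes were tested with a median of 1.03 beside −0.11 over all genes and 0 called, and Axin2 (1.17, adjusted p = 0.0119) and Lgr5 rose with the block. Within the family, Efna4 rose in clones at 72 h with the block (0.77, SE 0.19, adjusted p = 0.0422), the one called of the 4 further Eph and ephrin genes tested (Epha1, Epha4, Efna3 and Efna4), beside 1.87% of all genes.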

How the data were processed

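Single-cell RNA and hashtag libraries of 2 pools were used. The deposited matrices hold raw counts for genes (UMIs) and for hashtag antibodies in each barcode. They come from Cell Ranger 6.1.2 per the file headers, with reads aligned to mm10 per the submitters' processing notes. Other deposited lists give gene identifiers and barcodes. The annotation release and the authors' hashtag caller are not given in the sources used here. Gene positions are from GENCODE M21 (GRCm38) and promoter sequences from RefSeq (GRCm38.p6).

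The pools held 3342 and 2110 barcodes, with 1 barcode in both and 0 among those kept. HTODemux of Seurat 5.3.0 called hashtags at a positive quantile of 0.99, and barcodes with several hashtags were removed as doublets. Doublets within a mouse remain. Scrublet marked 4 and 5 barcodes of the pools, under the share at which a caller is taken to work. Of 4029 assigned barcodes, 1993 had at least 1000 UMIs, 500 genes and under 20% mitochondrial UMIs. Clustering used scanpy 1.11.5 under python 3.11.15, on 2000 variable genes, 30 components, 15 neighbours and Leiden resolution 1.0, with Eph and ephrin genes left out. A cluster was named where at least 3 markers were among its 50 leading genes and 30% of a marker list was raised.

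Sums of counts over the cells of each mouse and gate, 4 mice per group, were tested with edgeR 4.0.16 (limma 3.58.1, R 4.3.3): low-count filter, TMM scaling, pool as a term, quasi-likelihood test, Benjamini-Hochberg over 10606 genes at 0.05. The standard errors given for edgeR are the size of the log2 fold change over the square root of the test's F. They can be smaller than the p-value of the same test implies. Within a class, sums needed 10 cells and 3 sums per group. The same animal gave clones and control, so the mouse pairs them, and it entered as a block in an alternative fit. Residuals of the paired sums correlated at 0.22 to 0.56 at 72 h and at −0.00076 to 0.090 at 48 h. DESeq2 1.42.0, other hashtag calls, mitochondrial limits, resolutions, filters, scalings and single mice left out were further alternatives. The block combined with cell sets or single mice, HTODemux per hashtag, a 5-cell minimum, sums without stem-like cells, and lists and overlaps without mouse 3 were chosen after seeing the data. The test was also run on simulated data.

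The 7 members and the lists were chosen with earlier results of these data known. Named beside them are family genes with a UMI in at least 5% of the cells of a class, the 3 most abundant and any called gene of each list, and the 5 genes most like each member among those averaging at least 4 log2 CPM. Of the most abundant genes of the lists, 1 is not reported here. Lgr5 checks the gate. Values of cells outside the kept set were not analysed here.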

Additional observations from a re-analysis of the deposited data

Results flagged for a closer look

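Values far from the other mice of their group were looked for in 77 groups of 4 to 8 mice, by the gap to the nearest mouse over the group's range. Chance marks about 1 in 20 such groups, and 10 were marked. Over all cells these were Epha2 in the 48 h control of mouse 1 (6.42 CPM, others 5.36 to 5.46) and Efnb1 in the 72 h control of mouse 7 (79.9 CPM, others 64.3 to 66.1).

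Within classes 4 receptors and 1 ligand were marked. Ephb3 in stem-like cells of mouse 4 was at 89.5 CPM (others 48.4 to 62.5), and Ephb2 in the Gsdmc3-led cluster of mouse 3 at 44.8 CPM (24.3 to 26.5). Ephb4 was high in enterocyte-like cells of mouse 7 (15.0 CPM, others 4.64 to 7.83), goblet-like cells of mouse 6 (31.9 CPM, 8.53 to 14.8) and the Gsdmc3-led cluster of mouse 6 (24.3 CPM, 8.20 to 12.4). Epha2 was high in dividing-like cells of mouse 7 (10.8 CPM, 5.06 to 7.29) and the B4galnt4-led cluster of mouse 3 (5.01 CPM, 0 to 1.21). Efna1 in enterocyte-like cells of mouse 6 stood at 116 CPM (29.3 to 52.6), which sets the wide SD of that class.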

How the results depend on the processing

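The number of the 7 genes called was 0 in each gate and time comparison and stayed so in 162 of 178 alternatives. At 72 h it was 1, Ephb3, with the mouse as a replicate block. That also held for the block with Gaussian mixture hashtags, HTODemux per hashtag, a 10% mitochondrial limit, Scrublet calls or stem-like cells left out, or a top hashtag of at least 70%, and without a low-count filter and no block. With the block and a 50% mitochondrial limit it was 2 at 72 h (Efnb2 and Ephb3), 1 at 48 h (Ephb4) and 2 over both times (Ephb4 and Ephb3). Outside the block fit of the main setting, the shares of all genes called in these alternatives are not given here. Those calls therefore stand without a background. Leaving out single mice under the block gave 0 to 1. The block changed no other call of the 7.

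Differences that passed no test changed sign in places. At 48 h these were Efnb2 at a 10% mitochondrial limit (−0.31; −0.36 with the block) and without mouse 3 (−0.14; −0.18), Ephb2 with Gaussian mixture hashtags (0.16) and at 50% (0.30; 0.29 with the block), and Ephb3 without mouse 2 under the block (−0.46). At 72 h they were Efna1 without stem-like cells (−0.12) and Ephb2 without mouse 5 under the block (−0.080). In clones between times Efna1 turned at 10% (0.39) and Ephb2 with Gaussian mixture hashtags (−0.23) and at 50% (−0.34). The change between times turned for Efna1 at 10% with the block (0.042) and for Ephb2 at 50% (−0.22; −0.21 with the block). With single mice left out, Efnb1 in dividing-like cells ran from −0.16 (without mouse 5) to 0.24 and Efnb2 from −0.61 to 0.020 (without mouse 6). In stem-like cells Efna1 ran from −0.41 (without mouse 7) to 0.24, Ephb4 from −0.24 to 0.75 (without mouse 5) and Ephb3 from −0.21 (without mouse 6) to 0.29 (without mouse 5). The causes were not tested.

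The stem-like to enterocyte-like ratios of the EphB receptors and Efnb2 kept their sign in 20 settings. Ephb2 ran from 1.70 (resolution 0.6) to 2.71 (without mouse 6), Ephb3 from 4.06 (resolution 1.5) to 5.29 (50% limit), Ephb4 from 1.91 (resolution 0.6) to 2.81 (10% limit) and Efnb2 from −2.91 (resolution 1.5; −2.87 at the 50% limit) to −1.91 (control cells). The ratios of Efnb1, Efna1 and Epha2 changed sign between settings. Efnb1 ran from −0.55 (Gaussian mixture hashtags) to 0.29 (control cells). Efna1 ran from −0.45 (HTODemux per hashtag) to 0.50 (top hashtag of at least 70%) and Epha2 from −0.67 (Gaussian mixture hashtags) to 0.093 (5-cell minimum). Shares of cells with a UMI moved in 28 of 49 cases when cells were thinned to 1500 in place of 3000 UMIs. Depth limits Epha2 and the 48 h clones, in which 1 UMI can be 11.3 CPM.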
